A study of Homo sapiens with 12 samples.

Results

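The genes described here are 56 genes of G2 and mitosis: the cyclins and kinases that start mitosis, the spindle checkpoint, centromere proteins, mitotic kinesins, spindle and cytokinesis proteins. They were chosen by name, as rows of the deposited gene count table, and all 56 were among its 54261 rows. Each is described across lactate-treated and control cells of the 2 colorectal cancer cell lines in the study.

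The study sequenced RNA from SW480 and DLD1 cells, both established lines from human colorectal adenocarcinomas, grown with or without added lactate. Its 4 groups were SW480 cells with lactate, SW480 cells without lactate (control), DLD1 cells with lactate and DLD1 cells without lactate (control), with 3 libraries in each and 12 in all. The labels gave neither the lactate dose nor the time of exposure, and each line is a single cell line, so the libraries of a group show the spread within that line. The submitters called the libraries of a group biological replicates; no label said whether they came from separate cultures, so the p-values measure the spread between these libraries.

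As background, a cell enters mitosis when CDK1, bound to cyclin B, is freed of inhibitory phosphates by CDC25 phosphatases. Transcripts of the genes that carry out mitosis accumulate in G2, under a programme that includes B-MYB, FOXM1 and the DREAM and MuvB complexes, and fall again when cells leave the cycle. During mitosis the chromosomes attach to spindle microtubules at kinetochores, the spindle checkpoint holds back the anaphase-promoting complex until attachment is complete, and kinesins, PRC1 and anillin then organise the midzone and the cleavage furrow. In colorectal cancer cells, as in other cultured cells, these transcripts are known as markers of the dividing fraction of the culture.

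Library totals ran between 12302311 and 22662063 counts. The labelled epithelial origin was checked with 8 epithelial markers and 11 markers of leukocytes, fibroblasts and endothelium. The markers went with the label in DLD1 and were mixed in SW480, so SW480 is named here by its label alone. All 8 epithelial markers were called higher in untreated DLD1 than in untreated SW480, beside 33.6% of all genes. Their median log2 difference was 7.54. The 8 epithelial markers summed to between 9864 and 10929 CPM (counts scaled to a common library total) in DLD1 lactate libraries, 6642 and 9887 CPM in DLD1 control libraries, 1402 and 1666 CPM in SW480 lactate libraries and 1950 and 2300 CPM in SW480 control libraries. The defining epithelial genes were near 0 in SW480: EPCAM averaged 701 CPM in DLD1 control libraries and 0.964 CPM in SW480 control libraries, and CDH1 695 CPM and 1.45 CPM in the same groups, while the keratins KRT8 and KRT18 were present in both. The 11 markers of other cell types summed to between 184 and 188 CPM in SW480 lactate libraries and 164 and 182 CPM in SW480 control libraries, most of it from the collagen genes COL3A1 and COL1A1; PTPRC, CD3E, PECAM1 and CDH5 averaged under 0.2 CPM in all 4 groups. In SW480 KRT8 and KRT18 fell with lactate, by 0.51 and 0.61 on the log2 scale, and KRT19, another keratin, rose by 0.71. COL1A1 was the 1 marker of other cell types called in SW480, at 48.7 CPM in lactate libraries and 21.1 CPM in control libraries on average, and the part of these 4 markers in the results was not tested. Control libraries 2 and 3 of DLD1 stood apart from the rest: their genes deviated from the mean of the group's other libraries with an SD of 0.54 and 0.44 on the log2 scale, against 0.19 to 0.26 in the other 10 libraries, and the deviation followed transcript GC content (Spearman rho across genes -0.79 and 0.82).

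Promoter windows of 300 bases (250 before the annotated start and 50 from it on) are shown for 5 of the genes, because 2 short motifs common in promoters of genes of this programme can be read in them. The first is CCAAT, bound by the factor NF-Y; the second is the cell cycle homology region, searched as TTTGAA or TTCGAA, the element that DREAM and MuvB complexes recognise. Both strands were searched, so ATTGG is CCAAT on the other strand. KIF20A, CCNB1 and PLK1 had the 3 largest fold changes in lactate-treated SW480 cells, and CDC25B had the SW480 value nearest to 0 of the genes tested here. These genes were chosen after their values were seen. CCNB2 was shown as the other B cyclin, and it carries both motifs and several copies of the first. The sequences are from RefSeq (GRCh38.p14), all on the plus strand: KIF20A is chr5:138178862-138179161, CCNB1 chr5:69166900-69167199, PLK1 chr16:23678639-23678938, CCNB2 chr15:59104896-59105195 and CDC25B chr20:3786701-3787000. Capitals mark the motifs.
KIF20A: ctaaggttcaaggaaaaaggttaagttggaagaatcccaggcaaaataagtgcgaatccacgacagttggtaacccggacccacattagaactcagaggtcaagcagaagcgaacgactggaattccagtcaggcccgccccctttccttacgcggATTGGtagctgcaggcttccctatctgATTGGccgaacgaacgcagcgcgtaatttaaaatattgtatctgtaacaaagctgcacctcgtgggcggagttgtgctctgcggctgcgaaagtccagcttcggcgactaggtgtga
CCNB1: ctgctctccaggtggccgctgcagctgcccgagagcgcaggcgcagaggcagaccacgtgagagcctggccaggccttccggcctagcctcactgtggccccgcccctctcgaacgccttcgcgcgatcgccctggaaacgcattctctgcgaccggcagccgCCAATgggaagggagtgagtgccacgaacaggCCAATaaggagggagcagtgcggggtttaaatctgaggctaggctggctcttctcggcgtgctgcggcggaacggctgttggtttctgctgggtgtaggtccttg
PLK1: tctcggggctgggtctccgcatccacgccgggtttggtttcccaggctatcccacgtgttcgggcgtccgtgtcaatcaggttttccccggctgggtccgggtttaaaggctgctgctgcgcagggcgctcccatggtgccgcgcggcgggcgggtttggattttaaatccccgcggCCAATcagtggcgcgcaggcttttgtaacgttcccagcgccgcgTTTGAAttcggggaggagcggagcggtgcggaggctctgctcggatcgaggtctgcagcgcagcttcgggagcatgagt
CCNB2: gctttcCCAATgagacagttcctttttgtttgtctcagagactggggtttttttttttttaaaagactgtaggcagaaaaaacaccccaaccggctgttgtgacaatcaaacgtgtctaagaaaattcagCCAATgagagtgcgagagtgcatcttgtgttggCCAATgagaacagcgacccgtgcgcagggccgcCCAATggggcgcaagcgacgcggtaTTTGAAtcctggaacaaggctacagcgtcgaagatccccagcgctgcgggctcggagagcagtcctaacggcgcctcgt
CDC25B: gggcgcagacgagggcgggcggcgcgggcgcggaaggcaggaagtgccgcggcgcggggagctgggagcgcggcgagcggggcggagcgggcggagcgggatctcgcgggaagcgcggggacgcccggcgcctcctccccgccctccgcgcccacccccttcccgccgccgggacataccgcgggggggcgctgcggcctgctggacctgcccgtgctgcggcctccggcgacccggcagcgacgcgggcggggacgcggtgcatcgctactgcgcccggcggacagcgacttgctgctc

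The window of KIF20A holds CCAAT with its first base 94 and 67 bases before the start, and neither TTTGAA nor TTCGAA. In CCNB1, CCAAT begins 87 and 55 bases before the start. PLK1 has 1 CCAAT, 73 bases before the start, and a TTTGAA 29 bases before it; CCNB2 has 4 CCAAT and a TTTGAA at that same distance of 29 bases. The CDC25B window shown, the first of 4 listed for that gene, holds neither; of its other 3 windows, 1 holds a CCAAT, 1 holds both motifs (CCAAT 73 and the second motif 38 bases before the start) and 1 holds neither. RefSeq windows were found by symbol for 48 of the 56 genes, 59 windows in all, of which 76.3% held CCAAT, 71.2% TTTGAA or TTCGAA and 59.3% both. Among all 35116 windows of the same length these shares were 34.6%, 16.4% and 6.38%, and among windows of the genes tested for expression 34.1%, 12.4% and 4.87%. Of the windows of genes called lower in SW480, 82.1% held CCAAT and 71.8% the second motif, beside 65% and 70% of the windows of the other genes listed here. These are letters in a window and say nothing of binding in these cells.

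Lactate-treated SW480 cells had lower levels of many of these G2 and mitosis genes. Of the 55 genes that passed the filter on low counts, 37 fell and 0 rose in lactate-treated SW480 cells (edgeR quasi-likelihood test, Benjamini-Hochberg adjusted p under 0.05 over 17572 genes), beside 5.59% of all genes tested that fell and 6.83% that rose. All 55 had a negative log2 fold change, with a median of -0.50 (1.41-fold lower) against a median of -0.01 over all genes. In 47 of the 55 every lactate library was below every control library, which was so for 21.9% of all genes. At an unadjusted p under 0.05 there were 49 genes, beside 27.3% of all genes. DESeq2 called 39 lower (7.52% of the 16544 genes with an adjusted p in it) and limma-voom 36 (6.37% of all genes), with 0 higher by both. Summed, the 56 genes made up 3189 ± 259 CPM in SW480 lactate libraries and 4533 ± 442 CPM in SW480 control libraries (SD, n = 3 each). In RNA from whole cultures, fewer cells in G2 or mitosis and less of these mRNAs per cell cannot be told apart.

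The count of 37 depended on single libraries, including 1 of the other line, which enters the same fit. Without DLD1 control library 2 the count was 50, beside 11.6% of all genes. It was 20 without SW480 lactate library 1 (3.97% of all genes), 16 without SW480 lactate library 2 (1.52%), 16 without SW480 control library 1 (1.41%) and 21 without SW480 control library 3 (3.01%), while the median stayed between -0.58 and -0.44 whichever of the 12 libraries was left out. Of the 37, 16 genes stayed called lower under all 23 alternative settings. They were CCNA2, CCNB1, FOXM1, PLK1, AURKA, PBK, CDCA8, BUB1B, UBE2C, KIF2C, KIF4A, KIF18B, KIF20A, PRC1, DLGAP5 and CDCA3. The lowest share of all genes called lower under a single setting was 1.41%. The share of all genes called under every setting was not counted. Within the SW480 control group, library 2 sat lower than the other 2 libraries, its genes deviating by a median of -0.23 on the log2 scale from their mean.

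**Figure D1:**
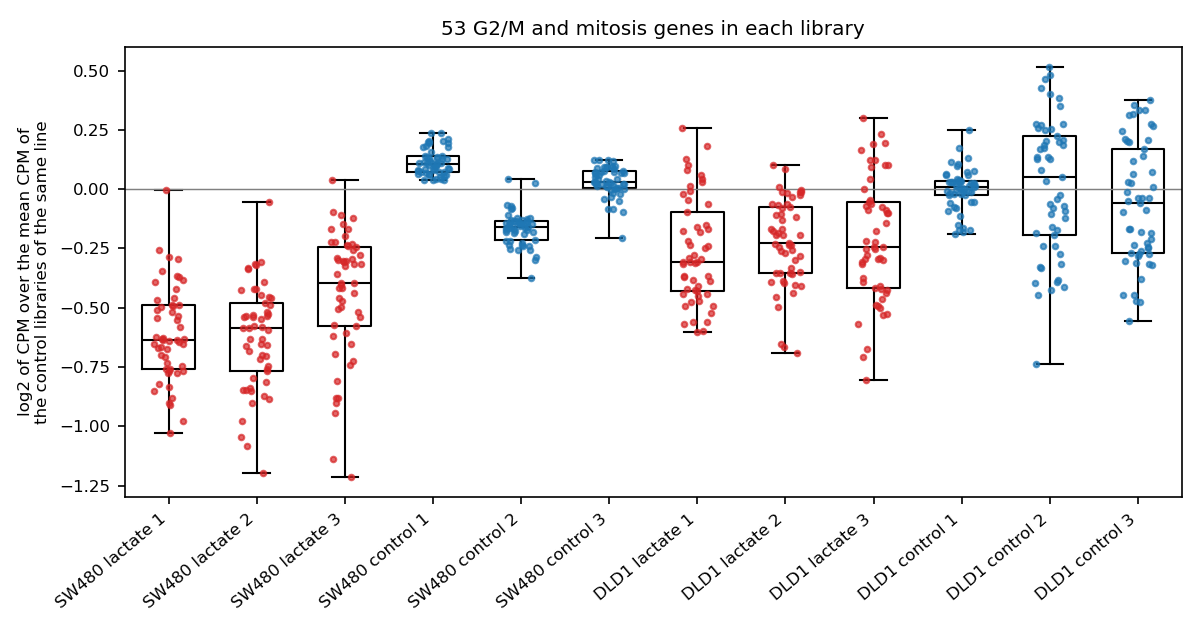
Each point is 1 of the 53 genes with a mean of at least 5 CPM, plotted for each of the 12 libraries as log2 of its CPM over the mean CPM of the control libraries of the same line; boxes show quartiles and whiskers the full range. The medians of the SW480 lactate libraries were -0.64, -0.59 and -0.40, below those of the SW480 controls (0.11, -0.16 and 0.03), and the DLD1 lactate libraries had medians of -0.31, -0.23 and -0.24, with a wide scatter in DLD1 controls 2 and 3.

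Of the 8 genes that control entry, 7 fell in lactate-treated SW480 cells, with a median of -0.54 over the 8. CCNB1, which encodes cyclin B1, the partner of CDK1 at mitotic entry, had 71.9, 66.7 and 73.4 CPM in lactate libraries, against 162, 118 and 144 CPM in control libraries. The lactate libraries lay close together and below every control library. Its log2 fold change was -0.98 ± 0.12 (SE; adjusted p = 1.93e-04). FOXM1, a transcription factor that drives G2 and mitosis genes, fell by 0.75 on the log2 scale (adjusted p = 0.00226), and CCNA2, cyclin A2 of S phase and G2, by 0.63 (adjusted p = 0.00231). By annotation, 15.9% of the exonic bases of FOXM1 overlap ITFG2 on the opposite strand, and the strand setting of the counting is not given in the sources used here. CCNF, an F-box protein that targets substrates for degradation, fell by 0.71, CDK1 by 0.46, CCNB2 by 0.45 and CDC25C, a phosphatase that activates CDK1, by 0.45. CDC25B, the related phosphatase, was not called: it had 88.4, 85.4 and 75.9 CPM in lactate libraries, against 93.5, 80.9 and 91.2 CPM in control libraries. The libraries of its 2 groups overlapped, and its log2 fold change was -0.06 ± 0.15 (SE; adjusted p = 0.837).

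Of the 4 kinases outside the checkpoint and the passenger complex, 3 fell in SW480. PLK1, the polo kinase of centrosome maturation and anaphase, had 25.1, 24.8 and 22.1 CPM in lactate libraries, against 55.8, 44.0 and 53.5 CPM in control libraries. Every lactate library was below every control library, and the log2 fold change of -1.07 ± 0.17 (SE; adjusted p = 0.00115) was the largest decrease among the 55. By annotation, 12.5% of the exonic bases of PLK1 overlap 2 other gene models on the opposite strand. AURKA, the kinase of centrosomes and spindle poles, fell by 0.62 (adjusted p = 0.00181) and PBK, a mitotic kinase that phosphorylates zinc-finger proteins, by 0.64 (adjusted p = 0.0048). NEK2, the kinase that separates centrosomes, was not called at -0.26 (adjusted p = 0.122).

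Of the 4 subunits of the chromosomal passenger complex, which corrects faulty attachments, AURKB and CDCA8 fell and the other 2 were not called. CDCA8, the subunit borealin, had 21.1, 19.2 and 22.6 CPM in lactate libraries, against 38.9, 30.5 and 31.9 CPM in control libraries. Both groups were separate, with a log2 fold change of -0.66 ± 0.11 (SE; adjusted p = 0.00231). AURKB, the kinase of the complex, fell by 0.64 (adjusted p = 0.0137). The scaffold INCENP was at -0.27 (adjusted p = 0.117) and BIRC5, survivin, at -0.29 (adjusted p = 0.111).

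Of the 9 genes of the spindle checkpoint and anaphase 7 fell, with a median of -0.43. UBE2C, the ubiquitin-conjugating enzyme that works with the anaphase-promoting complex, had 25.7, 22.3 and 23.8 CPM in lactate libraries, against 49.0, 44.8 and 38.1 CPM in control libraries. All 3 lactate libraries were below the lowest control, and its log2 fold change was -0.85 ± 0.14 (SE; adjusted p = 0.00132). BUB1B, the checkpoint protein BubR1, fell by 0.66 (adjusted p = 0.00204) and PTTG1, securin, by 0.52 (adjusted p = 0.0124). CDC20, the activator of the anaphase-promoting complex that the checkpoint inhibits, fell by 0.66, MAD2L1, its inhibitor, by 0.43, the kinase BUB1 by 0.41 and ESPL1, separase, by 0.42. The checkpoint kinase TTK was at -0.27 (adjusted p = 0.316) and BUB3, which recruits BUB1 and BubR1, at -0.22 (adjusted p = 0.131); neither was called.

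Of the 7 centromere and kinetochore genes 3 fell. CENPE, a kinesin that carries chromosomes to the spindle equator, had 29.8, 30.3 and 38.6 CPM in lactate libraries, against 61.5, 45.5 and 60.9 CPM in control libraries. Lactate library 3 was the highest of its group and still below every control library; the log2 fold change was -0.75 ± 0.20 (SE; adjusted p = 0.0232). NDC80, the subunit that gives the main microtubule coupler its name, fell by 0.53 (adjusted p = 0.0262) and CENPF, a large kinetochore protein, by 0.57 (adjusted p = 0.0452). The rest of the NDC80 complex was not called, with NUF2 at -0.41, SPC24 at -0.24 and SPC25 at -0.50; SPC25 had 425 counts over the 12 libraries, so its value is imprecise (SE 0.67). CENPA, the histone H3 variant that marks centromeres, was at -0.38 (adjusted p = 0.0539).

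Of the 12 kinesins, the motors of the spindle, 11 were tested and 8 fell. KIF20A, a kinesin of the anaphase midzone that brings the passenger complex there, had 37.4, 30.5 and 31.8 CPM in lactate libraries, against 76.8, 63.4 and 69.8 CPM in control libraries. The highest lactate library stayed well below the lowest control, and its adjusted p was the smallest of the 55, with a log2 fold change of -1.05 ± 0.12 (SE; adjusted p = 1.00e-04). KIF4A, a chromokinesin that also acts at the midzone, fell by 0.77 (adjusted p = 8.55e-04) and KIF2C, a microtubule depolymerase, by 0.61 (adjusted p = 0.00407). KIF18B, another kinesin of microtubule ends, fell by 0.84, KIF11, which pushes spindle poles apart, by 0.55, KIF18A, needed for chromosome alignment, by 0.50, the chromokinesin KIF22 by 0.43 and KIF23, a subunit of centralspindlin, by 0.38. KIF20B at -0.49, KIF14 at -0.38 and KIF15 at -0.55 were not called; KIF15 had 137 counts over the 12 libraries. KIFC1, a minus-end-directed kinesin, had 59 counts over the 12 libraries and did not pass the filter. KIFC1 lies near the major histocompatibility complex on chromosome 6, and other genes of that region, TUBB, FLOT1 and TAP1, were listed at 0 in all 12 libraries, so its low count was not read as its expression.

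Of 7 spindle proteins, 5 fell. PRC1, which bundles antiparallel microtubules at the midzone, had 65.1, 71.2 and 69.5 CPM in lactate libraries, against 114, 94.2 and 102 CPM in control libraries. The groups did not overlap and the log2 fold change was -0.57 ± 0.09 (SE; adjusted p = 0.00179), though 58.4% of the exonic bases of PRC1 are shared with other annotated gene models. DLGAP5, which stabilises kinetochore fibres, fell by 0.69 (adjusted p = 0.00381) and HMMR, a spindle protein that also binds hyaluronan, by 0.65 (adjusted p = 0.00876). NUSAP1, with 62.2% of its exonic bases shared with another gene model, fell by 0.45, and TPX2, the activator of AURKA, by 0.43. CKAP2 at -0.37 and ASPM, a spindle-pole protein, at -0.47 were not called. Neither cytokinesis gene was called. ANLN, the furrow protein anillin, had 131, 121 and 156 CPM in lactate libraries, against 200.4, 162 and 187 CPM in control libraries. All 3 lactate values were below all 3 control values, but at -0.41 ± 0.13 (SE; adjusted p = 0.0579) it missed the threshold; ECT2, which activates RhoA at the furrow, was at -0.27 (adjusted p = 0.311).

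CDCA3, linked in Xenopus to degradation of the mitotic inhibitor WEE1, had 11.0, 10.4 and 10.6 CPM in lactate libraries, against 22.6, 15.0 and 20.9 CPM in control libraries. The lactate libraries were nearly identical and all below the controls, and the log2 fold change was -0.85 ± 0.16 (SE; adjusted p = 0.00437). MKI67, the Ki-67 antigen used to score proliferation, fell by 0.46 (adjusted p = 0.0223). TOP2A, the topoisomerase that untangles sister chromatids, was not called at -0.35 (adjusted p = 0.0948).

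**Figure D2:**
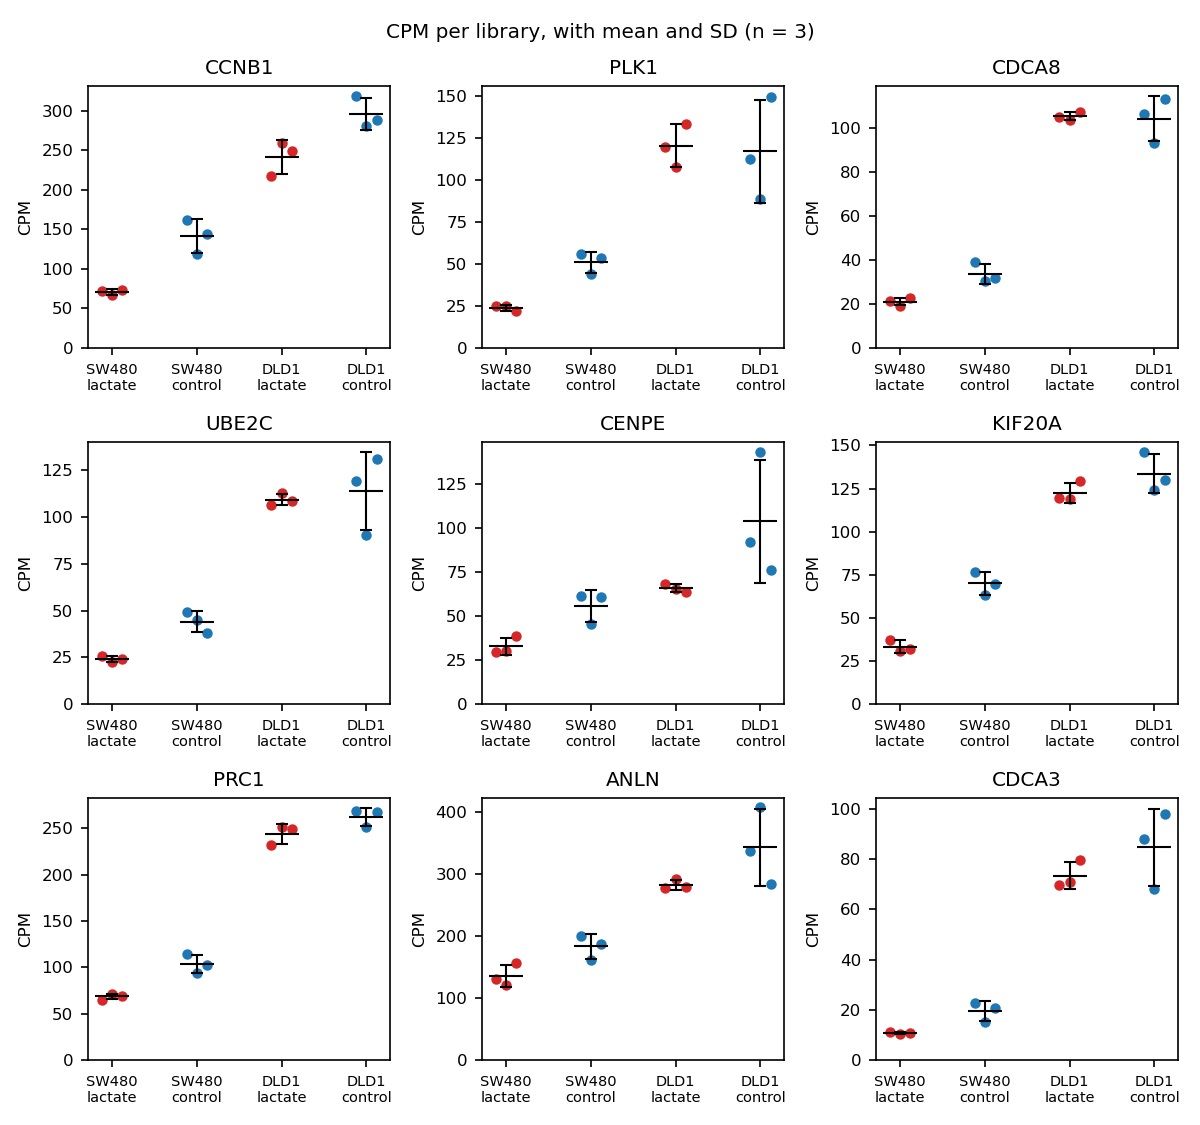
CPM in each library of the gene with the smallest p in SW480 from each of the 9 roles, with points for libraries and bars for the mean and SD (n = 3). In SW480 the lactate points lie below the control points in all 9 panels, while in DLD1 the groups overlap for PLK1, CDCA8, UBE2C, KIF20A, PRC1, ANLN and CDCA3.

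In DLD1 cells no gene of the 55 tested passed the test for an effect of lactate. The numbers called were 0 lower and 0 higher of 55 by edgeR, beside 0.0455% of all genes lower and 0.336% higher. Calls were 0 by limma-voom and 14 lower by DESeq2, beside 3.02% of the 11437 genes with an adjusted p in DESeq2. An unadjusted p under 0.05 was found for 31, beside 18.5% of all genes. The log2 fold change was negative for 47 of the 55, with a median of -0.29 against 0.02 over all genes. In 29 of the 55 every lactate library was below every control library, against 8.06% of all genes; in 0 was every lactate library above every control, against 10.7%. Summed, the 56 genes made up 8616 ± 58.4 CPM in DLD1 lactate libraries and 10261 ± 829 CPM in DLD1 control libraries (SD, n = 3 each).

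The 6 genes with the smallest p in DLD1 are given with their values; none was called. DLGAP5 had 115, 122 and 114 CPM in lactate libraries, against 165, 193 and 136 CPM in control libraries. The groups did not overlap, and the log2 fold change was -0.52 ± 0.12 (SE; adjusted p = 0.0947). PBK had 113, 126 and 119 CPM in lactate libraries, against 171, 190.4 and 141 CPM in control libraries. All its lactate libraries were below its controls, with -0.51 ± 0.12 (SE; adjusted p = 0.0962). CDK1 had 188, 202 and 198 CPM in lactate libraries, against 272, 299 and 224 CPM in control libraries. Control library 3 was the lowest of its group and still above the lactate libraries; the log2 fold change was -0.46 ± 0.12 (SE; adjusted p = 0.122).

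CENPE had 68.4, 65.7 and 63.6 CPM in lactate libraries, against 92.3, 143 and 76.4 CPM in control libraries. Control library 2 was far above the other 2 controls, and the log2 fold change was -0.68 ± 0.19 (SE; adjusted p = 0.133). ASPM, the spindle-pole protein, had 149, 139.8 and 129 CPM in lactate libraries, against 201, 322 and 154 CPM in control libraries. Control library 2 again stood high, and control library 3 was near the lactate libraries, with -0.72 ± 0.21 (SE; adjusted p = 0.138). TOP2A had 765, 781 and 758 CPM in lactate libraries, against 1031, 1224 and 829 CPM in control libraries. Its lactate libraries were close together and below all 3 controls, with -0.45 ± 0.13 (SE; adjusted p = 0.141).

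The DLD1 values followed GC content closely. Across the 55 genes, Spearman's rho between transcript GC content and the DLD1 log2 fold change was 0.92, against 0.57 across the 15419 tested genes with known GC content; in SW480 these were -0.18 and 0.06. Genes are not independent replicates, and the points share the same 6 libraries. The 27 genes of lower GC content (34.2 to 42.6%) had a DLD1 median of -0.45, and all genes in that range a median of -0.22; the 28 of higher GC content (43.2 to 59.6%) had -0.12, and all genes in their range 0.05. With a smooth trend along GC content and length removed from each library, both medians were -0.17, all 55 genes were negative, and rho across the 55 was 0.11. In that fit 7 genes were called lower in DLD1, beside 1.51% of all genes: ASPM at -0.45, CENPE at -0.37, CDCA3 at -0.36, CENPF at -0.35, KIF20B at -0.30, PBK at -0.27 and DLGAP5 at -0.25. The median over the 55 was then -0.17, and in SW480 the same fit called 49 lower, with a median of -0.55, beside 14.8% of all genes.

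The DLD1 count moved with the setting. With no filter on low counts it was 14 lower, beside 0.827% of all genes. Without control library 3 it was 27 lower and 1 higher (CDC25B at 0.42), where 10.6% of all genes were lower; 25 of those 27 were among the genes of lower GC content. Without control library 2 it stayed 0 (0.116% of all genes). Without both, which left 1 DLD1 control assumed to vary like the other groups, it was 10, beside 1.36% of all genes. The part of the GC trend of these libraries in the DLD1 values was not tested beyond these fits.

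**Figure D3:**
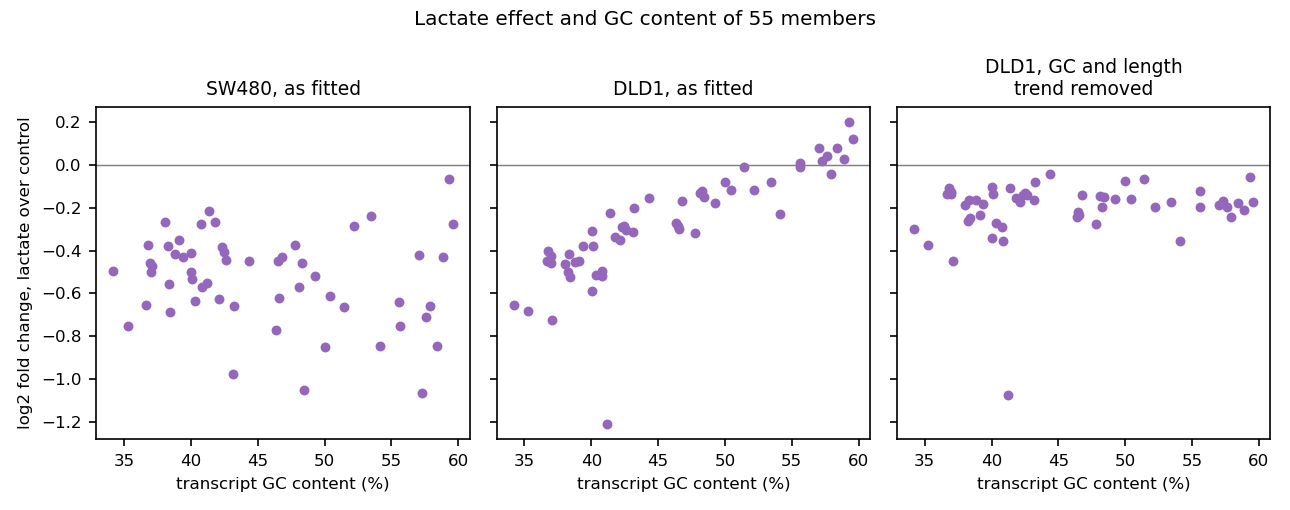
Log2 fold change of lactate over control for the 55 tested genes against transcript GC content, in SW480 (left), in DLD1 (middle) and in DLD1 with the GC and length trend removed (right). In DLD1 the values climb with GC content (rho 0.92) and lie on a flat band below 0 once the trend is removed (rho 0.11), with KIF15, at 137 counts in all, as the lone low point.

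The effect of lactate differed between the lines for KIF20A and PLK1. The difference, DLD1 effect minus SW480 effect, was tested in the same fit, and these 2 of the 55 genes were called higher and 0 lower, beside 0.324% of all genes called higher and 0.404% lower; 42 of the 55 differences were positive, with a median of 0.16 against 0.01 over all genes. KIF20A had 119.7, 119 and 129 CPM in lactate libraries, against 146, 124 and 130.1 CPM in control libraries of DLD1. Those groups overlapped. Its difference was 0.90 ± 0.16 (SE; adjusted p = 0.0187), from a DLD1 effect of -0.15 and an SW480 effect of -1.05. PLK1 had 119.8, 108 and 134 CPM in lactate libraries, against 113, 89.1 and 149.9 CPM in control libraries of DLD1. Those groups overlapped, and the controls were the more spread. Its difference was 1.09 ± 0.23 (SE; adjusted p = 0.0445), from 0.02 in DLD1 and -1.07 in SW480.

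The next 4 by p were not called. FOXM1 had 147, 145 and 159 CPM in lactate libraries, against 131, 137 and 179 CPM in control libraries of DLD1, with overlap, and a difference of 0.74 ± 0.18 (SE; adjusted p = 0.0668). CDCA8 had 105, 103 and 107 CPM in lactate libraries, against 106, 93.2 and 113 CPM in control libraries of DLD1. Its lactate values lay within the range of its controls, and the difference was 0.66 ± 0.16 (SE; adjusted p = 0.0669). UBE2C had 106, 113 and 109 CPM in lactate libraries, against 119, 90.6 and 131 CPM in control libraries of DLD1, again within the range of its controls, and a difference of 0.77 ± 0.19 (SE; adjusted p = 0.0678). CCNB1 differed from these in that its DLD1 groups were separate, with 218, 259 and 249.6 CPM in lactate libraries, against 319, 280.2 and 288 CPM in control libraries. Its difference was 0.67 ± 0.16 (SE; adjusted p = 0.0706). For CDK1 the fold changes of the lines were nearly equal, -0.46 in DLD1 and -0.46 in SW480, with a difference of -0.00 ± 0.17 (SE; adjusted p = 1). With the GC and length trend removed the values moved apart, to -0.13 in DLD1 and -0.37 in SW480, and the difference was 0.24 (adjusted p = 0.103).

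The call on the difference was fragile for both genes. The count of 2 was 0 without SW480 lactate library 2 or 3, SW480 control library 1 or 3, or any 1 of the 3 DLD1 lactate libraries (between 0.0111% and 0.0886% of all genes), and 1 without SW480 lactate library 1 (0.64%) or DLD1 control library 1 (0.116%). It was 4 without SW480 control library 2 (0.283% of all genes), 10 without DLD1 control library 2 (1.47%) and 15 without DLD1 control library 3 (3.95%). With the GC and length trend removed it was 23, beside 3.73% of all genes, with KIF20A at 0.90 and PLK1 at 0.91, and the median was 0.30. Over all alternatives KIF20A stayed between 0.77 and 0.98 and PLK1 between 0.90 and 1.29.

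**Figure D4:**
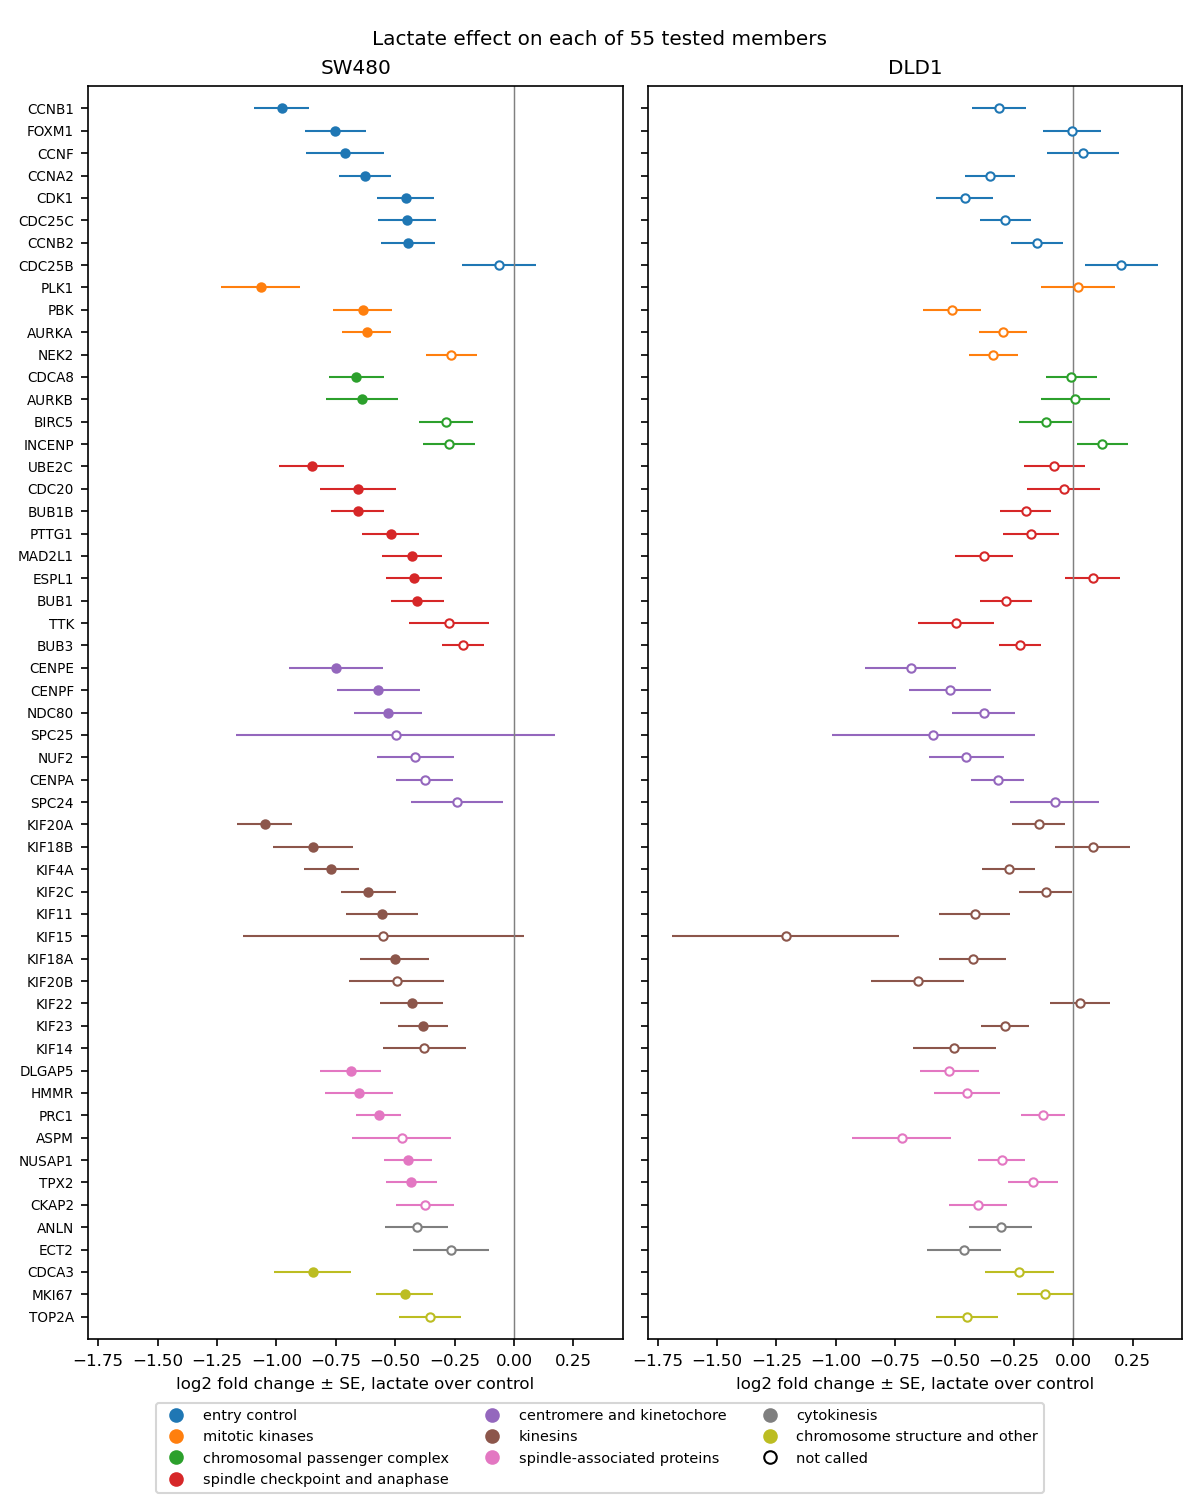
Log2 fold change with its SE for each tested gene, lactate over control, in SW480 and in DLD1, grouped by role. All 55 values are below 0 in SW480, with KIF20A and PLK1 near -1, and the DLD1 values lie between -1.21 (KIF15) and 0.20 (CDC25B).

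Without lactate, DLD1 cells had the higher levels of nearly all these genes. Of the 55, 52 were called higher in DLD1 controls than in SW480 controls and 0 lower, beside 33.6% of all genes called higher and 37.3% lower; the median log2 difference was 1.12 (2.18-fold), against -0.05 over all genes. In 50 of the 55 every DLD1 control library was above every SW480 control library, against 35.1% of all genes. These control libraries also enter the lactate comparisons, so the comparisons are not independent. The 56 genes together made up 1.03% of all counts in DLD1 controls and 0.453% in SW480 controls.

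CDC25C had 59.6, 53.5 and 58.0 CPM in DLD1 control libraries, against 12.6, 10.6 and 11.8 CPM in SW480 control libraries. Every DLD1 library was above every SW480 library by a wide margin, with a log2 difference of 2.22 ± 0.12 (SE; adjusted p = 1.86e-10). KIF2C had 208, 171 and 205 CPM in DLD1 control libraries, against 58.5, 44.5 and 49.5 CPM in SW480 control libraries. The lines were separate, with 1.87 ± 0.12 (SE; adjusted p = 1.39e-09). CCNB2, cyclin B2, had 134, 127 and 132 CPM in DLD1 control libraries, against 41.2, 30.7 and 36.0 CPM in SW480 control libraries. The spread within each line was small beside the gap between them, 1.80 ± 0.11 (SE; adjusted p = 1.71e-09).

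BUB1B had 201, 216 and 176 CPM in DLD1 control libraries, against 61.3, 55.4 and 59.4 CPM in SW480 control libraries. Its log2 difference was 1.69 ± 0.11 (SE; adjusted p = 2.94e-09). NUSAP1, a microtubule-bundling protein, had 262, 265 and 241 CPM in DLD1 control libraries, against 95.3, 81.8 and 90.7 CPM in SW480 control libraries. Its log2 difference was 1.46 ± 0.10 (SE; adjusted p = 6.30e-09). CDCA8 had 106, 93.2 and 113 CPM in DLD1 control libraries, against 38.9, 30.5 and 31.9 CPM in SW480 control libraries, with no overlap between the lines. Its log2 difference was 1.56 ± 0.11 (SE; adjusted p = 8.53e-09).

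The largest log2 difference, 2.62 for SPC25, rested on low counts (SE 0.52). The 3 genes not called were CDC25B at 0.30 (adjusted p = 0.0997), KIF15 at 1.12 (adjusted p = 0.0571) and KIF14 at -0.24 (adjusted p = 0.223). KIF14, a kinesin of cytokinesis, had 62.2, 86.7 and 48.2 CPM in DLD1 control libraries, against 76.5, 65.4 and 80.9 CPM in SW480 control libraries. Its 3 DLD1 values spread on both sides of the SW480 values, and it was the lone gene of the 55 with a negative difference; without DLD1 control library 2, and without DLD1 control libraries 2 and 3 together, it was called lower. CDC25B had 108, 85.6 and 148 CPM in DLD1 control libraries, against 93.5, 80.9 and 91.2 CPM in SW480 control libraries, with overlapping lines. It was called higher with no filter and without DLD1 control library 2, and its log2 difference ran between 0.01 and 0.47 over the alternatives; KIF15 was called higher under 7 of 22 alternatives.

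**Figure D5:**
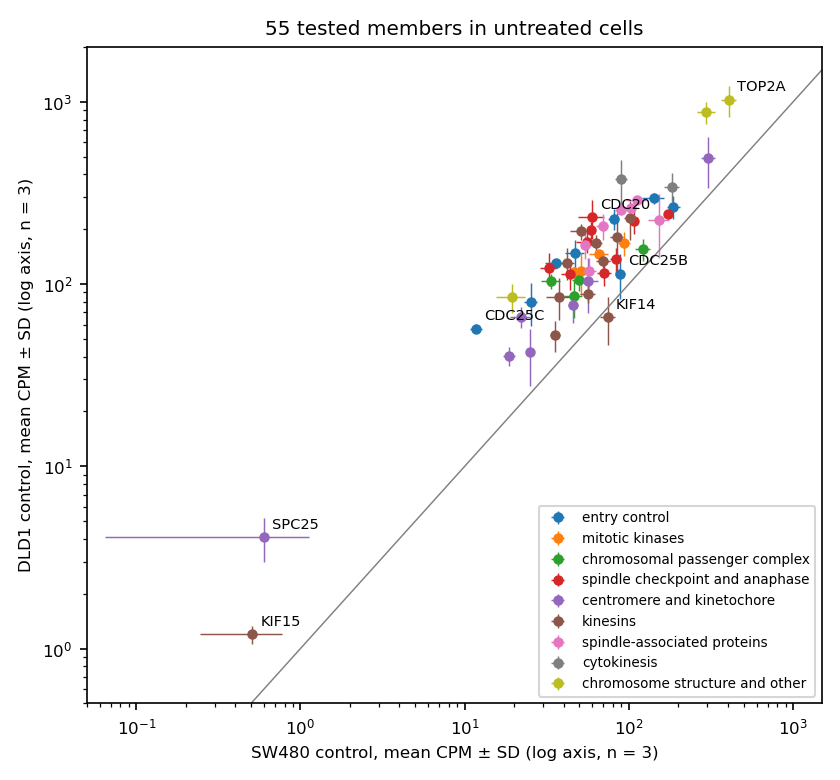
Mean CPM with SD (n = 3) of the 55 tested genes in untreated DLD1 cells (vertical) against untreated SW480 cells (horizontal), on log axes; the line marks equal levels and colours mark roles. All genes but KIF14 lie above the line, and SPC25 and KIF15 lie apart at the low end.

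Other genes of cell division were read in the same fits from 8 lists, given as counts and medians. Over all genes tested in SW480, 5.59% fell and 6.83% rose with lactate, and the median was -0.01. In lactate-treated SW480 cells, the list of DNA replication and G1/S genes had 18 lower calls among 40 tested and a median of -0.35; MCM3, a subunit of the replicative helicase, was at -0.75 and CDC6, which loads that helicase, at -0.72. Of 17 outer kinetochore and checkpoint genes 4 fell. ZWINT, a kinetochore protein that binds the RZZ complex, had 36.6, 35.3 and 44.4 CPM in SW480 lactate libraries, against 89.6, 69.9 and 70.8 CPM in SW480 control libraries. It lay below all controls in every lactate library and was at -0.97 ± 0.12 (SE; adjusted p = 2.31e-04). The other counts of genes that fell were 4 of 17 inner kinetochore genes and 4 of 19 condensin and cohesin genes (NCAPG, a condensin subunit, at -0.81). Also lower were 4 of 24 spindle pole and cytokinesis genes (FAM83D at -0.87) and 4 of 15 CDK1 activation genes. In the anaphase-promoting complex list 2 of 17 fell, and in the DREAM, MuvB and B-MYB list 1 of 13 (RBL1, the pocket protein p107, at -0.60). The 1 of 13 is near the share over all genes.

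WEE1, the kinase that inhibits CDK1, was the only gene of those 8 lists that rose in SW480. It had 70.3, 81.0 and 65.7 CPM in SW480 lactate libraries, against 42.8, 48.8 and 44.5 CPM in SW480 control libraries. The groups were separate, with a log2 fold change of 0.70 ± 0.11 (SE; adjusted p = 0.00136). In DLD1 it had 110.2, 112 and 108 CPM in lactate libraries, against 105, 123 and 107 CPM in control libraries. These overlapped; its effect there was -0.05, and the difference between the lines was -0.75 (adjusted p = 0.0441). BORA, which helps activate PLK1, fell by 0.63 in SW480 and was at -0.58 in DLD1 (adjusted p = 0.0707). In DLD1 edgeR called 0 genes of the 8 lists, beside 0.0455% of all genes lower and 0.336% higher. Of the 40 DNA replication and G1/S genes, 12 had an unadjusted p under 0.05 in DLD1, beside 18.5% of all genes. The list medians in DLD1 lay between -0.32 and -0.17, against 0.02 over all genes. In untreated cells 39 of 40 DNA replication and G1/S genes were higher in DLD1, beside 33.6% of all genes. Their median was 1.15, against -0.05 over all genes.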

How the data were processed

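RNA from 12 libraries, 3 in each of 4 groups, was sequenced from total RNA with Illumina library protocols, per the labels. The authors deposited whole-number read counts per gene in 1 table; per the submitters' processing notes reads were aligned with HISAT2 to GRCh38. Neither the version of HISAT2 nor the counting step, gene annotation or strandedness is given in the sources used here. Samples were grouped by their cell line and treatment labels. The 56 genes, their roles and the 8 further lists were chosen with earlier results of these data known, so no p-value was adjusted over them alone.

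The counts were fitted with edgeR 4.0.16 (R 4.3.3): filter by expression within groups, TMM scaling, 1 mean per group over all 12 libraries (8 residual degrees of freedom), robust quasi-likelihood F tests, two-sided, with Benjamini-Hochberg adjustment over 17572 genes and a threshold of 0.05. The SE was taken as the absolute log2 fold change divided by the root of the F statistic. CPM are counts over the library total, without TMM, given as mean ± SD. GC content and length came from GENCODE v29, for 87.7% of tested genes, and their trend was removed as a natural spline with 5 degrees of freedom for each library. Other settings were DESeq2 1.42.0, limma-voom (limma 3.58.1), 2 other scalings, 2 other filters, a replicate block, each line alone and leaving out each library. Shares of all genes under another setting are over the genes tested in that setting. For DESeq2 these are the genes with an adjusted p: 16544 in SW480, 11437 in DLD1 and 14840 for the difference. In each role, called genes were named, with values per library for the smallest p; genes not called were named where few. A marker of other cell types that the design lists is not reported here and is left out of the summed level. The steps were tested on simulated data. Totals of 12302311 to 22662063 counts limit the precision of low genes; intervals for single libraries were not used.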

Additional observations from a re-analysis of the deposited data

Results flagged for a closer look

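The effect of lactate on PLK1 and KIF20A differed between the lines by the test of the difference itself. The DLD1 effect minus the SW480 effect was 1.09 for PLK1 (DLD1 0.02, SW480 -1.07; edgeR adjusted p = 0.0445) and 0.90 for KIF20A (DLD1 -0.15, SW480 -1.05; edgeR adjusted p = 0.0187), both on the log2 scale. In SW480 all 3 lactate libraries were below all 3 control libraries for both genes, and in DLD1 the groups overlapped for both. Over the alternative settings the adjusted p ran between 3.03e-06 and 0.163 for PLK1 and between 1.38e-05 and 0.0957 for KIF20A.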

How the results depend on the processing

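In SW480 the count of genes called lower (37) lay between 32 and 50 under every setting that kept all libraries (3.32% to 14.8% of all genes) and between 16 and 50 with 1 library left out (1.41% to 11.6% of all genes; 16 without lactate library 2 or control library 1); the count called higher stayed 0, and the median lay between -0.58 and -0.44 with 1 library left out. In DLD1 the count of lower calls (0) became 14 with no filter (0.827% of all genes), 14 with DESeq2 (3.02%), 7 with the GC and length trend removed (1.51%), and 10 (1.36%) without DLD1 control libraries 2 and 3, an alternative chosen after seeing the data; with 1 library left out it ran between 0 and 27 (0.00553% to 10.6%), and higher calls between 0 and 1, in each case the higher value without DLD1 control library 3. The DLD1 median was -0.17 with the trend removed and between -0.34 and -0.24 with 1 library left out. For the difference between the lines, higher calls (2) were 10 with no filter (1.28% of all genes), 9 with DESeq2 (1.91%), 1 with limma-voom (0.216%), 23 with the trend removed (3.73%) and 8 without DLD1 control libraries 2 and 3 (1.48%); with 1 library left out they ran between 0 and 15 (0.0111% to 3.95%). The median of the difference was 0.30 with the trend removed and between 0.10 and 0.28 with 1 library left out. Between untreated DLD1 and SW480 the median was 1.21 with the trend removed and between 1.04 and 1.21 with 1 library left out; higher calls ran between 50 and 53 (30.6% to 34.5% of all genes), and lower calls between 0 and 1, the 1 being KIF14, which was also called lower without DLD1 control libraries 2 and 3 (1 gene). The cause of these changes was not tested.

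Replicate numbers were not used as pairs in the main fit. Same-numbered lactate and control libraries correlated at 0.05, 0.08 and 0.13 in SW480 and at -0.17, 0.23 and 0.30 in DLD1. Libraries of different number correlated between -0.145 and 0.082 in SW480 and between -0.31 and 0.101 in DLD1. Whether the numbers mark pairs was not tested beyond these values. With the replicate block the counts were 32 lower in SW480 (4.28% of all genes), 0 in DLD1 (0.0398%), 2 higher for the difference (0.216%) and 51 higher between the untreated lines (32.8%). The block with the GC and length trend removed gave 7 lower in DLD1 (0.985%) with a median of -0.17, 21 higher for the difference (3.13%) with a median of 0.29, and a median of 1.22 between the untreated lines. Of the 37 genes called in SW480, the 2 called for the difference and the 52 called between the untreated lines, 0 changed sign under the alternatives run (23, 22 and 22). Low counts limit SPC25, KIF15 and KIFC1.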
